A study of Mus musculus with 4 samples.

Results

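The writers and erasers of DNA methylation, the 4 DNA methyltransferase genes Dnmt1, Dnmt3a, Dnmt3b and Dnmt3l, the maintenance cofactor gene Uhrf1 and the 3 TET dioxygenase genes Tet1, Tet2 and Tet3, were followed in cultured mouse gonocytes. The genes were chosen for their function, and every probe set that the array annotation assigns to 1 of them alone was taken. This gave 20 of the 45037 probe sets, from 1 each for Dnmt3l and Tet3 to 5 for Dnmt3a, and all 8 genes were represented. The cells were male germ cells from testes of mice at 2 days post partum, enriched with magnetic beads against THY1, a surface protein, and kept for 8 h without serum, growth factors or feeder cells. In the RA group, of 2 samples, the medium held 100 nM retinoic acid, a vitamin A derivative that acts through nuclear receptors and drives spermatogonia towards differentiation. In the vehicle group, also of 2 samples, it held ethanol. The strain and the number of animals per sample are not given in the sources used here. Since the labels do not name separate animals or cultures, the replicate spread behind each p-value may be technical.

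Methylated cytosine in mammals is written by 2 kinds of enzyme. DNMT1 copies the mark onto the new strand after replication, brought there by UHRF1, which recognises DNA methylated on 1 strand. DNMT3A and DNMT3B place the mark on unmethylated DNA, and DNMT3L, which has no catalytic activity of its own, stimulates them and is required for methylation of imprinted genes and transposons in germ cells. The TET enzymes oxidise methylcytosine, the first step of active removal. In the mouse, male germ cells regain their methylation during late fetal life, while they are arrested as gonocytes, and divide again shortly after birth.

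The 2 RA arrays had median signals of 26.6 and 26.9 and the 2 vehicle arrays of 27.5 and 29.5. Of 12 germ cell markers, 10 had a probe set of their own. All 10 were above the filter on low signals, a mean at or above the 40th percentile of all probe sets. Ddx4, a germ cell RNA helicase, had signals of 1300 and 1121 on the RA arrays and of 1305 and 1289 on the vehicle arrays. Markers of other testis cells were above the filter as well: 9 of 10 Sertoli, 8 of 8 peritubular and stromal, 7 of 7 endothelial, 7 of 7 leukocyte and 5 of 5 Leydig markers with a probe set. Over all genes, 13011 of 18193 were above the filter on their brightest probe set, so these counts do not measure purity. The values below are those of an enriched population of unmeasured purity. In such samples fewer cells of a type and less RNA per cell cannot be told apart. Among known RA targets, Cyp26a1, which degrades RA, had signals of 164 and 375 on the RA arrays against 30.9 and 19.9 on the vehicle arrays, a log2 difference of 3.08 ± 0.41 (SE, n = 2 per group), and Rarb, an RA receptor gene, gave 2.69 ± 0.35. Stra8, a gene of meiotic entry, gave 3.35. None of these passed adjustment over all probe sets (limma, adjusted p = 0.212 for Cyp26a1, 0.209 for Rarb and 0.391 for Stra8).

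Each of the 8 genes had at least 1 probe set above the filter. Of their 20 probe sets, 19 were above it, against 27022 of all 45037, and the exception was the dimmest of the 4 for Tet1. The Tet1 probe sets 1429448_s_at and 1419896_at exceeded the array's own 40th percentile on only 3 of the 4 arrays. None of the 19 passed in the comparison of RA with vehicle, which asks whether 8 h of RA alters transcript levels. Each had an adjusted p of 1 in limma, and 0 of 27022 probe sets passed in either direction (0% called higher and 0% called lower). At an unadjusted p under 0.05 there were 0 of 19 against 2.75% of all probe sets. The median log2 difference of the 19 was −0.15, against −0.02 for all probe sets above the filter, and 13 were negative and 6 positive. The RA arrays were both higher than either vehicle array for 1 of them, or 5.26%, against 12.7% of all probe sets, and both lower for 5, or 26.3%, against 15.2%. These 5 come from 3 genes, so they are not separate observations. Among them, Tet1 1419896_at passed the filter only through its brighter vehicle arrays. On the brightest probe set of each gene, the 95% interval of the difference lay within a 2-fold change either way for 5 genes, Dnmt1, Dnmt3a, Dnmt3b, Uhrf1 and Tet2, and reached past it for the other 3.

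**Figure D1:**
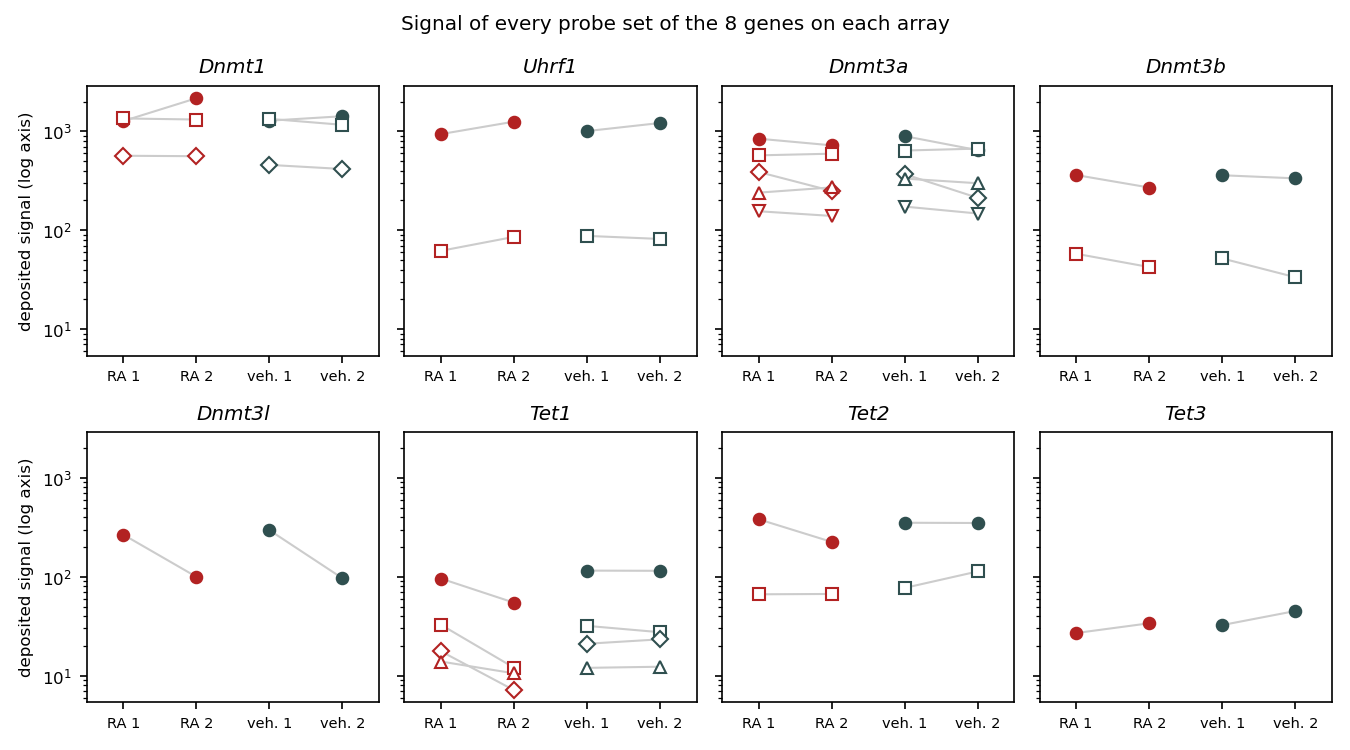
Deposited signal (log axis) of the 20 probe sets of the 8 genes on the 2 RA arrays (red, left) and the 2 vehicle arrays (dark, right); filled circles are the brightest probe set of a gene, open symbols the others, and lines join arrays of 1 group. Dnmt3l has the widest gap between the arrays of a group, and the lowest Tet1 signals are on RA replicate 2. Heights of different probe sets are not comparable.

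Among the maintenance genes, Dnmt1 was the only one with a probe set higher on both RA arrays. That probe set (1422946_a_at) had signals of 567 and 561 on the RA arrays, against 458 and 416 on the vehicle arrays, a log2 difference of 0.36 ± 0.19 (SE, n = 2 per group; limma, unadjusted p = 0.0887). The groups did not overlap, and the spread within each was small. The other probe sets of Dnmt1 did not separate the groups. The brightest (1435122_x_at) had 1271 and 2162 on the RA arrays and 1283 and 1423 on the vehicle arrays, so that its difference of 0.29 ± 0.29 came from RA replicate 2 alone. Without that array it was −0.09. The remaining one (1447877_x_at) had 1352 and 1318 against 1338 and 1165, a difference of 0.10 ± 0.21. Both of these carry the suffix that the array maker gives to sets with probes that may also match other transcripts.

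Uhrf1 gave no difference between the groups beyond the spread of their arrays. Its brightest probe set had 938 and 1254 on the RA arrays and 1007 and 1216 on the vehicle arrays, with means of 1096 ± 223 and 1111 ± 147 (SD, n = 2 each). The log2 difference was −0.03, with a 95% interval from −0.57 to 0.51. Its dimmer probe set had 62.0 and 85.7 against 87.7 and 81.7, a difference of −0.20 ± 0.27. Since Dnmt1 and Uhrf1 are known as genes of dividing cells, 18 cell division genes were read beside them. Of these, 17 were above the filter, with a median log2 difference of 0.09 against 0.01 for all genes, and none passed. Their summed signal was 9559 and 9630 on the RA arrays and 9226 and 9109 on the vehicle arrays. Its part in the Dnmt1 values was not tested.

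Among the genes of new methylation, Dnmt3a was read from 5 probe sets, of which 2 had positive and 3 negative differences. The brightest (1423064_at) had 844 and 723 on the RA arrays, against 895 and 645 on the vehicle arrays, a log2 difference of 0.04 ± 0.23 (SE, n = 2 per group). The vehicle arrays lay on either side of both RA arrays. A second (1423063_at) had 572 and 595 against 640.1 and 669, a difference of −0.17 ± 0.19, and another (1460324_at) had 240.1 and 271 against 333 and 299, a difference of −0.30 ± 0.20 (limma, unadjusted p = 0.167). In both of these the RA arrays lay below the vehicle arrays, by 1.12- and 1.23-fold on average. The remaining pair overlapped, with differences of 0.15 and −0.11.

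Dnmt3b, the second de novo enzyme, overlapped between the groups on both of its probe sets. The brighter had 362 and 270.5 on the RA arrays and 360.0 and 335 on the vehicle arrays, a log2 difference of −0.15 with a 95% interval from −0.65 to 0.35. The dimmer had 57.9 and 42.4 against 51.8 and 33.5, a difference of 0.22 ± 0.33, so the direction was not shared.

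Dnmt3l, the cofactor of the de novo enzymes, differed little between the groups and strongly within them. Its only probe set had signals of 267 and 100.0 on the RA arrays and of 296 and 96.5 on the vehicle arrays. Replicate 1 was 2.67-fold brighter than replicate 2 with RA and 3.07-fold brighter with vehicle, while the log2 difference between the groups was −0.05 ± 0.57. The 95% interval, from −1.36 to 1.26, was the widest of the 8 genes and holds changes of more than 2-fold in either direction, in a fit with no term for the replicate number. Between arrays of the same number, RA minus vehicle was −0.15 for replicate 1 and 0.05 for replicate 2. Leaving out vehicle replicate 1 gave 0.74, and leaving out vehicle replicate 2 gave −0.83.

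Of the 3 classes, maintenance, de novo and TET genes, only the TET genes had differences that were all of one sign. All 6 of their probe sets above the filter were lower on average with RA, and 0 passed. The median log2 difference was −0.45, with a range from −0.71 to −0.25. The −0.71 is that of Tet1 1419896_at, whose mean log2 value of 4.41 lay just above the cut of 4.355. It passed the filter only through its vehicle arrays, where it was brighter. For the Tet1 probe set left out by the filter, RA minus vehicle was 0.15 for replicate 1 and −0.15 for replicate 2. The 5 probe sets of the maintenance genes had a median of 0.10, and the 8 of the de novo genes of −0.08. The difference between these classes was not tested, and probe sets of 1 gene share its transcripts.

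Tet1 had the largest difference of the 8 genes. Its brightest probe set (1455425_at) had 95.9 and 54.7 on the RA arrays, against 115 and 115 on the vehicle arrays, and was 1.55-fold lower with RA (log2 difference −0.63 ± 0.31; limma, unadjusted p = 0.0743). The groups did not overlap, and RA replicate 2 lay far below RA replicate 1. Without RA replicate 2 the log2 difference was −0.25, and without RA replicate 1 it was −1.01. A dimmer probe set (1419896_at) had 17.7 and 7.13 against 21.0 and 23.3, a difference of −0.71 ± 0.37. Another (1429448_s_at) overlapped, with 32.7 and 12.0 against 31.9 and 27.5. The probe set below the filter had 13.9 and 10.6 against 12.0 and 12.3. In all 4 the lowest signal was that of RA replicate 2.

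Tet2 showed the same array standing low on its brightest probe set. That set had 382 and 225 on the RA arrays and 352 and 349.8 on the vehicle arrays, a log2 difference of −0.25 ± 0.27, and without RA replicate 2 it was 0.12. The dimmer probe set (1438781_at) had 66.5 and 67.0 against 77.1 and 113, a difference of −0.46 ± 0.28. There the RA signals were the 2 lowest, and the gap came mainly from vehicle replicate 2. Tet3, read from 1 dim probe set, had 27.0 and 33.9 against 32.5 and 45.1, a difference of −0.30 ± 0.31, and the groups overlapped.

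Other measures were also compared between the groups. The Actb control probe sets near the 3' end were brighter than those near the 5' end, which reflects RNA integrity and amplification, by a ratio of 2.08 and 2.32 on the RA arrays, against 1.72 and 1.73 on the vehicle arrays. For Gapdh it was 1.85 and 2.00 against 1.56 and 1.47. The summed signal of the 10 germ cell markers was 10111 and 10348 on the RA arrays and 10733 and 10625 on the vehicle arrays, and 9 of the 10 had negative differences. Zbtb16, a repressor of undifferentiated spermatogonia, had the most negative log2 difference of the 10, −1.45, and did not pass (limma, adjusted p = 1). Without Zbtb16, a choice made after its values were seen, the sums were 9742 and 10174 on the RA arrays against 10031 and 9926 on the vehicle arrays, and the groups overlapped. Sall4 was the brightest of the 10 and the only one with a positive difference. It had 2311 and 3776 on the RA arrays against 2268 and 2530 on the vehicle arrays. Its weight makes these sums a poor measure of the other germ cell markers. Among the Sertoli markers, Wt1 gave 0.56 (limma, unadjusted p = 0.0244) and Sox9 0.40, both with the RA arrays above the vehicle arrays, while 5 of the 9 above the filter were negative. Of the 7 endothelial markers 6 were positive, with 0.62 for Tek, a receptor gene of these cells (limma, unadjusted p = 0.116). Both RA arrays were above both vehicle arrays for 2 of the 7, against 14.1% of all genes. The summed endothelial signal was 367 and 317 on the RA arrays and 348 and 258 on the vehicle arrays. For the Sertoli markers it was 3915 and 5088 against 3714 and 4759. Both sums overlapped between the groups. The part of all these measures in the TET values was not tested.

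**Figure D2:**
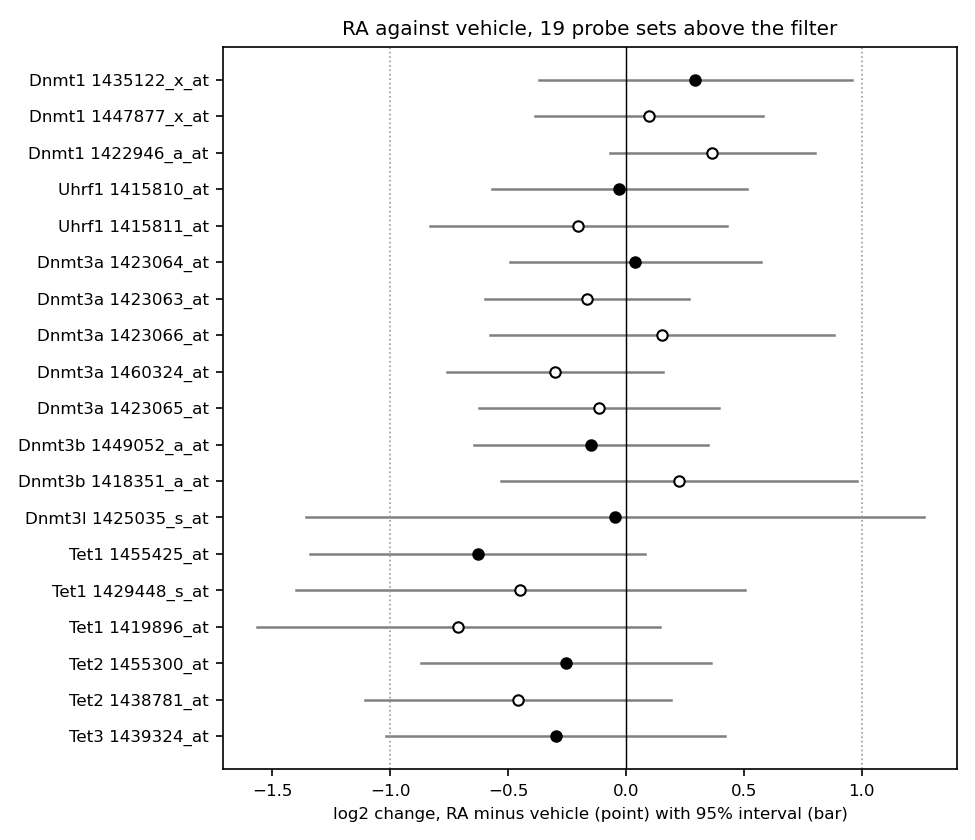
Log2 difference of RA minus vehicle (points) with its 95% interval from limma (bars) for the 19 probe sets above the filter, grouped by gene; filled points are the brightest probe set of each gene and dotted lines mark a 2-fold change. Every bar crosses 0 in this fit, which has no term for the replicate number, and the 6 TET points lie left of 0.

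In Dnmt3l and several other genes the replicates differed in the same direction in both groups. Replicate 2 was lower than replicate 1 in both groups for 11 of the 19 probe sets, against 34.9% of all probe sets above the filter, and higher in both for 5, against 31%. The de novo genes made up 6 of those 11. Besides Dnmt3l, a Dnmt3a probe set (1423066_at) had 389 and 250.01 on the RA arrays and 369 and 213 on the vehicle arrays. The brightest probe set of Uhrf1 ran the other way in both groups. Some counted among the 11 only narrowly. On the log2 scale the brightest Tet1 probe set differed by −0.76 with RA and by −0.01 with vehicle. The brightest of Tet2 differed by −0.75 and −0.01. Dnmt1 1422946_a_at and 1447877_x_at differed by −0.015 and −0.036 with RA. Several of the 11 share a gene, so they are not separate observations. The labels do not say what a replicate number stands for.

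The cell markers also differed by replicate number. The summed signal of the 7 leukocyte markers was 1920 and 900 on RA replicates 2 and 1, and 2126 and 1074 on vehicle replicates 2 and 1, with 7 of 7 higher on replicate 2 in both groups. Of the 10 germ cell markers, 7 were lower on replicate 2 in both groups. The germ cell sums were 10348 and 10111 on RA replicates 2 and 1, and 10625 and 10733 on vehicle replicates 2 and 1. Sall4, the brightest of the 10, was higher on replicate 2 in both groups, with 3776 and 2311 with RA and 2530 and 2268 with vehicle. In the same order, the Leydig sums were 2033 and 1555 with RA and 2590 and 1419 with vehicle. The peritubular and stromal sums were 12473 and 9527 with RA and 11065 and 9056 with vehicle. The endothelial sums went the other way, with 317 and 367, and 258 and 348. The sums of the 10 Sertoli markers were 5088 and 3915 with RA and 4759 and 3714 with vehicle, in the same order. Of the 10, 6 were higher and 2 lower on replicate 2 in both groups. The 2 that were lower were Sox9 and Wt1, transcription factor genes of Sertoli cells, and Clu, with 2666 and 1672 with RA and 2319 and 1744 with vehicle, was the brightest. Their part in the Dnmt3l values was not tested.

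**Figure D3:**
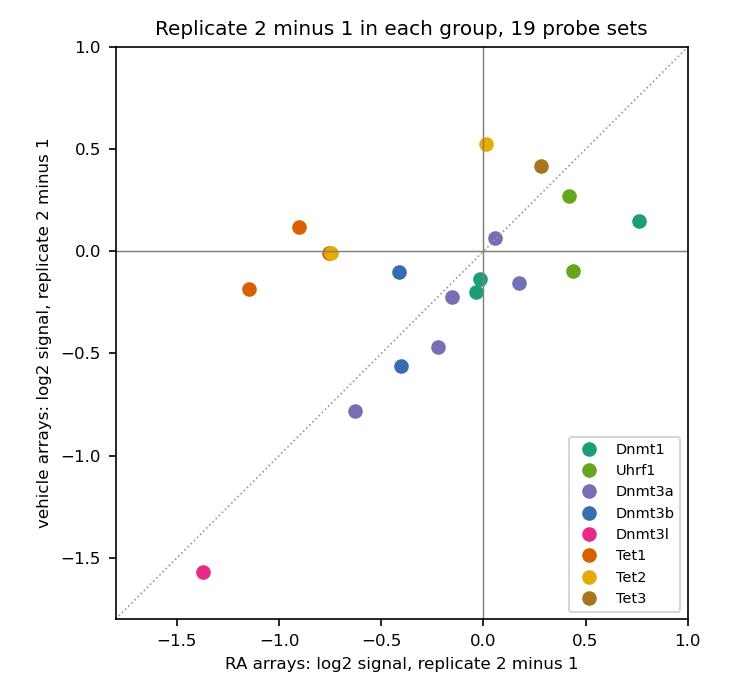
Log2 signal of replicate 2 minus replicate 1 among the RA arrays (x axis) and among the vehicle arrays (y axis) for the 19 probe sets above the filter, coloured by gene; the dotted line marks equal values. Dnmt3l lies far down near the line at −1.37 and −1.57, while the Tet1 points lie left of it, low on RA replicate 2 but not on vehicle replicate 2 (one is nearly hidden by a Tet2 point at −0.75 and −0.01).

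Promoter sequence is shown for the genes that stood out above, set against RA target genes, because receptors for RA bind pairs of hexamers in DNA. Windows of 250 bases before the listed starts came from RefSeq (GRCm38.p6), 15 for the 8 genes, and both strands were searched. The listed starts are not always the outermost of a gene. The motif was a direct repeat of 2 half-sites with 5 bases between them, in the same orientation. A half-site was AGGTCA or a relative of it, either AGTTCA or GGGTCA, or else GGTTCA. The repeat was found in 0 of the 15 windows and in 0.0883% of all 32851. Of the 3 RA targets given above, Rarb and Cyp26a1 each held 1, and Stra8, with the largest difference of the 3, held 0. The 2 repeats are printed 5′ to 3′ along the gene's strand, with the half-sites in capitals (written TGAACT where AGTTCA lies on the opposite strand), from chr14:16575503-16575539 (minus strand) and chr19:37697766-37697802 (plus strand).
Rarb: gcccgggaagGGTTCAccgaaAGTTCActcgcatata
Cyp26a1: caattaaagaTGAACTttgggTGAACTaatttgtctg

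A single AGGTCA, on either strand, was found in 3 of the 15 windows, of Tet1, Dnmt3a and Uhrf1, and in 14% of all windows. The Stra8 window held 2. Any of the half-site forms was found in 5 of the 15 windows, or 33.3%, against 38.6% of all windows. The Tet1 window, of the gene with the largest difference, spans chr10:62887325-62887574 (minus strand). The gene is annotated up to 62887469, so part of this window, with the match, lies within it. The match in Dnmt3a lies before the last of its 3 listed starts, at chr12:3891648-3891693, and that in Uhrf1 before the last of its 2, at chr17:56304131-56304176, both on the plus strand. In the 3 stretches below the capitals mark the hexamer, written TGACCT where it lies on the opposite strand.
Tet1: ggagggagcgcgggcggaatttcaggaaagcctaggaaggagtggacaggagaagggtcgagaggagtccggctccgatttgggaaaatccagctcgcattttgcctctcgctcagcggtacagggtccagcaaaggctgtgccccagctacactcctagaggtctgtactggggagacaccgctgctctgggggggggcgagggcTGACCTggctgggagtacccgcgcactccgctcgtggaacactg
Dnmt3a: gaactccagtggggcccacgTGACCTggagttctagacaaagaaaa
Uhrf1: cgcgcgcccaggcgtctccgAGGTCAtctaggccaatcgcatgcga

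The first Dnmt3l window, shown because this gene varied most between replicates, lies at chr10:78042037-78042286 (plus strand) and held no AGGTCA, but GGGTCA 2 times, in capitals below. Its 3 windows held 5, 4 and 3 CpG sites, against a median of 6 over all windows. CpG is the sequence that DNMT1, DNMT3A and DNMT3B methylate. The windows of Tet2 and the first of Dnmt3a held 51 and 38, while the first of Dnmt1 held 2. A match or its absence describes these letters in these windows only.
Dnmt3l: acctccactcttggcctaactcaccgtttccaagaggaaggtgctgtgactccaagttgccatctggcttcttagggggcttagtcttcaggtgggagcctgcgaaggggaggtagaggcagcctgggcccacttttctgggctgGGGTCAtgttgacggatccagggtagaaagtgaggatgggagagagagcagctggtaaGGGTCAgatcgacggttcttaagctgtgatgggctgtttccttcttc

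The rest of the methylation pathway was read from 4 lists, of which 54 genes were analysed here, and all 54 were above the filter. On the brightest probe set of each gene none of the 54 passed (limma, adjusted p = 1 for each). On these probe sets 0 had an unadjusted p under 0.05, against 2.71% of all genes. Their log2 differences ran from −0.51 to 0.49.

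Partners of the methyltransferases lay on the positive side, with a median log2 difference of 0.17 over 18 genes, 14 positive and 4 negative, against a median of 0.01 for all genes. With the probe sets of each gene averaged the median was 0.075. Both RA arrays were above both vehicle arrays in 7 of the 18, against 14.1% of all genes, and below in 0, against 12.6%. Setd2, a histone methyltransferase whose mark guides the de novo enzymes, had signals of 355 and 357 on the RA arrays, against 279 and 275 on the vehicle arrays (log2 difference 0.36 ± 0.19). Zfp57, a zinc finger protein that protects imprints, had 207 and 176 against 132 and 154, a difference of 0.41 ± 0.22. Trim28, the corepressor that it recruits, had 982 and 1252 against 842 and 921, and Uhrf2, the paralogue of Uhrf1, had 410.5 and 399 against 331 and 329.7. The dimmer probe set of Uhrf2 gave −0.14, while the second of Trim28 gave 0.31.

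The supply of methyl groups had a median of 0.00 over 13 genes, 7 positive and 6 negative. Mthfd1, an enzyme of folate metabolism, had 558 and 697 on the RA arrays, against 485 and 404 on the vehicle arrays, a log2 difference of 0.49 ± 0.21 (limma, unadjusted p = 0.0506). Its other probe sets gave 0.04 and 0.16. Mthfd2, its mitochondrial relative, gave 0.35 ± 0.23, and 0.45 on its other probe set. The serine hydroxymethyltransferase gene Shmt1 gave 0.33 ± 0.21, with values between −0.07 and 0.23 on its other probe sets. Tyms, which uses folate to make thymidylate, gave −0.51 ± 0.34 from signals of 9.62 and 17.5 against 18.2 and 23.7, close to the pseudocount of 5.

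Cofactors and partners of the TET enzymes had a median of −0.07 over 8 genes, 3 positive and 5 negative. The median was 0.023 with equal array medians and −0.31 with the probe sets of each gene averaged, so neither its sign nor its size was stable. Cxxc5, which encodes a DNA-binding protein known to interact with TET2, had 271 and 229 on the RA arrays, against 296 and 342 on the vehicle arrays, a log2 difference of −0.35 ± 0.20, and gave −0.28 on a dim probe set. Ogt, the glycosyltransferase that binds TET proteins, had 939 and 1125 against 1152 and 1259.9, a difference of −0.23 ± 0.21, and its other 4 probe sets gave values from −0.59 to −0.33. Ogdh, which consumes the TET cosubstrate oxoglutarate, gave 0.22 ± 0.19, with −0.22 on a dim probe set. D2hgdh, which oxidises hydroxyglutarate to oxoglutarate, gave 0.20 ± 0.19, with −0.03 on its other probe set.

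Repair and deamination genes, which act on oxidised or deaminated cytosine, had a median of 0.06 over 15 genes, 10 positive and 5 negative. Both RA arrays were above both vehicle arrays in 1 of the 15, against 14.1% of all genes. That gene was Xrcc1, a scaffold of base excision repair, with 135 and 135 against 128 and 104 (log2 difference 0.22 ± 0.23). The glycosylase gene Mbd4 gave −0.34 ± 0.31, and −0.12 on a dimmer probe set. Gadd45b, a stress-induced factor, gave 0.24 ± 0.27, with 0.08 and −0.18 on its other probe sets. Apobec3, a cytosine deaminase of antiviral defence, gave 0.23 ± 0.33.

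Of the cell division genes, Bub1, a checkpoint kinase gene, had the smallest p, with 499.9 and 451 on the RA arrays against 392.4 and 339.4 on the vehicle arrays (log2 difference 0.38 ± 0.20). Mcm4, a subunit of the replicative helicase, gave −0.30 ± 0.28, and 0.15 on its other probe set. The subunits of ribonucleotide reductase, Rrm1 and Rrm2, gave 0.19 ± 0.20 and −0.19 ± 0.20. Their other probe sets above the filter were all negative, with −0.21 for Rrm1 and −0.62 and −0.29 for Rrm2.

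**Figure D4:**
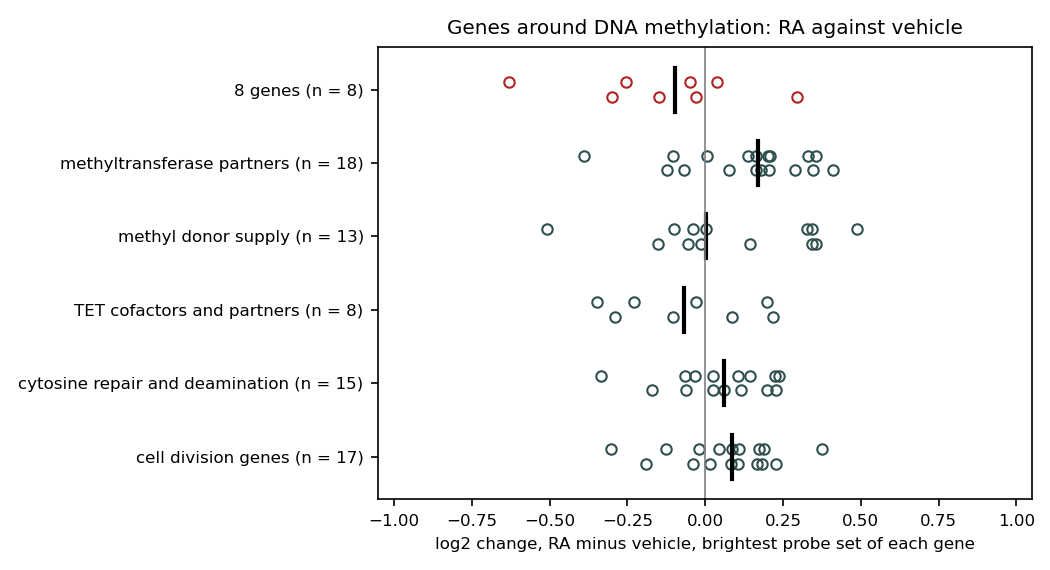
Log2 difference of RA minus vehicle on the brightest probe set of each gene (circles) with the median (vertical bar) for the 8 genes of methylation writing and erasure (red) and for 5 lists of related genes. All values lie between −0.63 and 0.49, and the medians lie between −0.10 and 0.17.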

How the data were processed

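Expression was measured in 4 samples of THY1-sorted mouse gonocytes, 2 cultured with RA and 2 with vehicle, on 1 Affymetrix Mouse Genome 430 2.0 array each. Total RNA, 75 ng of each sample, went through NuGEN Ovation amplification and the scans through GCOS 1.2, per the labels. The authors deposited 1 linear intensity per probe set and array; the probe summary and scaling are not given in the sources used here. Their means with 2% trimmed at each end were 125 on every array, so the intensities were used as deposited.

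The 64 control probe sets were left out and log2(intensity + 5) was taken, a scale on which the changes of dim probe sets come out too small. Probe sets with a mean log2 value at or above the 40th percentile were kept, 27022 of 45037. RA was compared with vehicle in limma 3.58.1 (R 4.3.3; lmFit, then eBayes with trend) by two-sided tests, adjusted by Benjamini-Hochberg over these 27022, with no term for the replicate number. The fit had 2 residual degrees of freedom and a variance prior worth 5.81. Gene names are those of the platform annotation, 34741 of them updated to the RefSeq table of GRCm38.p6, and probe sets assigned to several genes were given no name. A gene was read from its brightest probe set by mean log2 value, and its other probe sets are given beside it. For each pathway list the text names the 4 genes with the smallest unadjusted p. The genes and lists were chosen with earlier results of these data known. Alternatives covered the normalization, pseudocount, filter, variance model, replicate block, each array left out and the mean over probe sets. Plots were made in Python 3.11.15 (matplotlib 3.10.9).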

Additional observations from a re-analysis of the deposited data

How the results depend on the processing

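None of the 8 genes passed at an adjusted p under 0.05 in any of the alternatives run, with adjusted p from 0.141 to 1. Tet1 stayed below 0 in all 14, between −0.66 and −0.54 apart from those without 1 array, and Tet3 in its 13, since the 60th percentile filter left it out. The direction was kept in 98 of 111 values for single genes. With equal array medians Dnmt3l was 0.038 and Uhrf1 0.062, and averaging the probe sets of a gene gave −0.078 for Dnmt3a and 0.038 for Dnmt3b. With 1 array left out, the log2 difference ran from −0.088 to 0.68 for Dnmt1, −0.195 to 0.27 for Dnmt3a, −0.35 to 0.058 for Dnmt3b, −0.83 to 0.74 for Dnmt3l, −0.24 to 0.18 for Uhrf1, −1.01 to −0.25 for Tet1, −0.63 to 0.12 for Tet2 and −0.51 to −0.089 for Tet3. The lone array of a group is then assumed to vary like the other group.

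The count of 0 called over all probe sets (743 at an unadjusted p under 0.05 in limma) was between 0 and 50 higher and between 0 and 102 lower without 1 array. It was 45 and 45 without RA replicate 1, 50 and 102 without RA replicate 2, and 1 and 0 without vehicle replicate 1. With the replicate block it was 221 higher and 322 lower, and still none of the 8 genes passed. Tet1 then had an adjusted p of 0.141 in limma. Its 95% interval in that fit was −1.07 to −0.19, which did not hold 0 (limma, unadjusted p = 0.00509). The 95% interval of Dnmt3l was −0.44 to 0.34. In this fit the variance of each probe set came from the trend over all probe sets, treated as known. The counts and intervals of the block fit therefore do not measure the replicate spread of each gene. The deviations of same-numbered arrays correlated at 0.526 over probe sets, but the labels do not tie the numbers to a shared preparation, so this is a hint from the data.

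List medians also moved. With quantile normalization, equal array medians and cyclic loess they were 0.072, 0.092 and 0.063 for methyl donor supply, −0.13, 0.023 and −0.11 for TET cofactors, and 0.11, 0.14 and 0.11 for repair genes, and that of methyltransferase partners was 0.26 with equal medians. Methyl donor supply was 0.074 with the 60th percentile filter. Averaging the probe sets of a gene gave 0.075 for partners, 0.12 for donor supply and −0.31 for TET cofactors. Without 1 array the medians ran from 0.14 to 0.25 for partners, 0.00030 to 0.13 for donor supply, −0.097 to 0.011 for TET cofactors and −0.0094 to 0.059 for repair genes. The vehicle mean of the brightest Tet1 probe set was 114.3, 111.7 and 113.5 under those 3 scalings, against 115 as deposited, and that of Tet2 was 340.2 with equal medians. The cause of these shifts was not tested.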
